A study of Mus musculus with 18 samples.

Results

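The genes described here carry the signal of the cytokine IL-33 from its receptor into the cell. They are the receptor accessory chain Il1rap, the adaptor Myd88, the kinases Irak1, Irak2, Irak3 and Irak4, the ubiquitin ligase Traf6, the kinase Map3k7 with its partner Tab2, and the JNK kinase Mapk8. They were taken by name, as components that act below ST2, and every array probe whose annotation gives one of these symbols was read. Of the 10 genes, 9 had a probe, 27 probes in all out of 45281, and 21 of these probes passed the detection filter. Irak4 has no probe in the gene table used here and was not analysed here. Each of the 9 genes is described by its brightest probe, as all 10529 genes tested were, and the other probes are given where they bear on the result.

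The arrays were 18 Illumina mouse bead arrays, 3 in each of 6 groups, of bone marrow-derived mast cells. The donor mice were C57BL/6J animals of 4 to 6 weeks. The groups were ST2KO cells stimulated with IL-33 for 4 h, ST2KO cells activated through IgE for 4 h, unstimulated ST2KO cells, wild-type (WT) cells stimulated with IL-33 for 4 h, WT cells activated through IgE for 4 h, and unstimulated WT cells. The labels give no dose and name the allele only as ST2KO, and the gene that encodes ST2, Il1rl1, was not analysed here, so no value here checks the genotype labels. The labels do not say whether arrays of a group came from separate cultures or mice, so the p-values measure the spread between these arrays, which may be technical.

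As background, IL-33 binds ST2, which then pairs with the accessory chain IL-1RAcP, the product of Il1rap. The joined receptor tails recruit MyD88, on which IRAK4, IRAK1 and IRAK2 assemble; these kinases pass the signal to TRAF6, whose ubiquitin chains are bound by TAB2 and activate TAK1, the product of Map3k7. TAK1 activates the IKK complex and the MAP kinases, among them JNK, and in mast cells this route leads to cytokine production. IgE acts through another receptor, FceRI, which does not use ST2 or MyD88.

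On the 17 complete arrays the median intensity ran from 86.4 to 97.9, and 35.1% to 38.6% of the probes were detected. The intensities of ST2KO IgE array 3 covered 10012 probes only, and its levels were placed by the rank of the authors' deposited log2 values. With 3 arrays a group, the 95% interval of a gene's difference between groups reached 0.46 log2 units to either side at the median gene. The arrays numbered 3 stood apart in every group, with 148 genes over 2-fold higher and 83 over 2-fold lower than the mean of arrays 1 and 2 in all 6 groups. Among the higher were the mast cell protease Mcpt4 (median difference 5.69 log2 units), the basophil protease Mcpt8 (2.54) and the B cell receptor gene Cd79b (4.09). Among the lower were the basophil marker Prss34 (-3.54) and the erythroid marker Hba-a1 (-1.73). The basophil marker Cd200r3 (0.47) and the mast cell markers Kit (0.05) and Cpa3 (0.03) differed less, so markers of 1 cell type did not move together. Deviations from the group means were correlated between arrays of the same number, at 0.511 to 0.918 in 18 pairs within a genotype and at 0.397 to 0.727 in 27 pairs between genotypes, across genes. Between arrays of different number they ran from -0.854 to 0.719 in 36 pairs within a genotype and from -0.674 to 0.604 in 54 pairs between genotypes, so both ranges overlapped. Every same-number pair was positively correlated, but the shared displacement of the arrays numbered 3 can itself give this. These correlations therefore cannot show whether the arrays were paired. The numbers were taken to pair the arrays as an assumption. Where a fit with the array number as a replicate block changed a call, both adjusted p-values are given. The mast cell markers Kit, Fcer1a, Cpa3 and Cma1 were detected on 17 of 17 complete arrays, and 3 of 3 basophil markers passed the detection filter. So did 8 of 13 macrophage and dendritic cell markers, 2 of 5 erythroid, 2 of 6 lymphocyte, 1 of 8 neutrophil and 0 of 3 eosinophil markers.

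The promoters of the 4 genes with a change past the threshold of their brightest probe, in the fit with or without the block, are shown here. They are RefSeq windows of GRCm38.p6, 300 bases around each start of transcription, written 5′ to 3′ on the gene's strand: Irak2 at chr6:113638217-113638516 (plus strand), Irak3 at chr10:120202081-120202380 (minus strand), Traf6 at chr2:101678170-101678469 (plus strand) and Mapk8 at chr14:33447109-33447408 (minus strand). Irak3 and Mapk8 have 2 listed windows each, and only the most upstream one is shown and was read. Capitals mark matches on either strand to an NF-kB-like motif, GGG and then CC with any 5 bases between them.
Irak2: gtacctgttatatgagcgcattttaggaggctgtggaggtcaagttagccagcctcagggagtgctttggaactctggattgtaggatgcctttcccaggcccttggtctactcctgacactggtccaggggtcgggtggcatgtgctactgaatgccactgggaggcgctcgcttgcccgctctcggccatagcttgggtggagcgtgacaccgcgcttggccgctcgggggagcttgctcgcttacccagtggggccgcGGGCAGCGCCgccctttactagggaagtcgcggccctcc
Irak3: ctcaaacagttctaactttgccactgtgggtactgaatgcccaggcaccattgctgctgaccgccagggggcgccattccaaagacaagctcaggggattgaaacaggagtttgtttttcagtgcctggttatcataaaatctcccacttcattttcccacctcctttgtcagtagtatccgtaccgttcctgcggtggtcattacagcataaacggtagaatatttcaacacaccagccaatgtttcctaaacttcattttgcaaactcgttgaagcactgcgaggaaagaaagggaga
Traf6: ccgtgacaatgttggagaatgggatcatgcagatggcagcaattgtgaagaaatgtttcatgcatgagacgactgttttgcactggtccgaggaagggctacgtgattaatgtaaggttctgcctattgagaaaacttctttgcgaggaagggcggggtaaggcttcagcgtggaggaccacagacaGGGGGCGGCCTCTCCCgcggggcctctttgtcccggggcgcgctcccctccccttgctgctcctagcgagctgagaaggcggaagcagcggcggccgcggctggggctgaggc
Mapk8: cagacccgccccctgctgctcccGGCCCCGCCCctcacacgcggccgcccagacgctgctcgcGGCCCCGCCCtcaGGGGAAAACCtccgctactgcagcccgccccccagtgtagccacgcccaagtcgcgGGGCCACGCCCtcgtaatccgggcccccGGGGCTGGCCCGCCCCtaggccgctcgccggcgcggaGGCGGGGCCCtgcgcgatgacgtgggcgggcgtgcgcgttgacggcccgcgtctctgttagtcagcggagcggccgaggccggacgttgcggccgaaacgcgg

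The Irak3 window held no match to this motif, the Irak2 window 1, the Traf6 window 2 and the Mapk8 window 10, counting each strand and overlapping matches separately. Of 32851 mouse promoter windows of the same length, 50.8% held at least 1 match. None of the windows read for the 9 members held the AP-1 motif TGANTCA (in 7.81% of windows), the NFAT motif TGGAAA (21.4%) or the GATA motif AGATAA (11.2%) on either strand. For Irak1, Irak3, Tab2 and Mapk8 a further listed window was not read, so these absences hold for the most upstream window only. A match is a description of the letters only.

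How many of the genes responded was asked first, in each comparison, with limma over all genes and a threshold of 0.05 on the adjusted p. Every ST2KO IgE value from these fits includes the third array of that group, placed by rank. In IgE-activated ST2KO cells against unstimulated ST2KO cells 1 member was higher (Traf6) and 1 lower (Mapk8) of 9, where 12.6% of all genes passed, 5.48% higher and 7.11% lower. With the replicate block 1 was higher (Traf6) and 3 were lower (Irak2, Irak3, Mapk8), where 33.8% of all genes passed, 15.1% higher and 18.7% lower. In WT cells, 0 of 9 members passed after IgE, where 11.9% of all genes did, and 4 had an unadjusted p under 0.05. The share of all genes at an unadjusted p under 0.05 is not given, here or below. Counts at that threshold therefore cannot be set against the shares that passed the adjusted one. With the block 1 member was higher (Traf6) and 3 were lower (Irak2, Irak3, Mapk8), where 32.5% of all genes passed, 14.6% higher and 17.9% lower.

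After IL-33 in WT cells 0 of 9 passed without the block, where 11.8% of all genes did, and 1 had an unadjusted p under 0.05; with the block Traf6 alone passed, as higher, where 31.5% of all genes passed and 13.5% were higher. In WT cells given IL-33 against WT cells given IgE, 0 of 9 passed without the block, where 4.43% of all genes did, with 2 at an unadjusted p under 0.05. With the block 2 passed, Irak2 and Irak3, both higher, where 15.8% of all genes passed and 7.58% were higher. These counts were not read as particular to the 9 genes. The median log2 fold change over the 9 members was -0.17 in ST2KO cells after IgE, -0.16 in WT cells after IgE and 0.04 in WT cells after IL-33, beside -0.04, -0.03 and -0.02 over all genes.

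**Figure D1:**
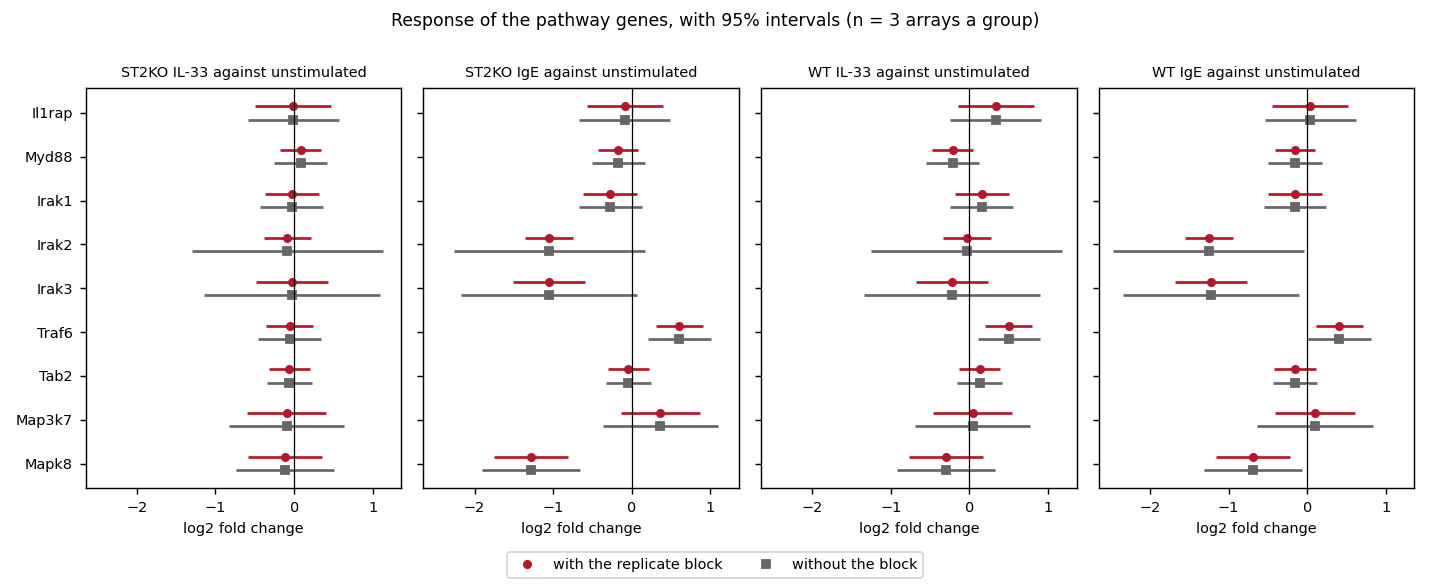
Log2 fold change of each pathway gene (x axis) against unstimulated cells of the same genotype, with 95% intervals from limma, n = 3 arrays a group; red circles are the fit with the replicate block and grey squares the fit without it. Irak2 and Irak3 lie left of 0 after IgE in both genotypes, Traf6 lies right of 0 after IgE and after IL-33 in WT cells, and the intervals of all 9 genes include 0 in ST2KO cells given IL-33.

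Il1rap, which encodes the signalling partner of ST2, gave a signal close to the detection limit. Its brightest probe was detected on all 3 unstimulated arrays of each genotype and on 2 of 3 WT IL-33 arrays. In ST2KO cells its level was 4.63, 4.93 and 5.20 log2 units after IL-33, 5.08, 5.02 and 4.43 after IgE, and 5.07, 4.81 and 4.92 without stimulation. In WT cells it was 5.84, 5.46 and 4.66 after IL-33, 5.25, 5.13 and 4.70 after IgE, and 5.23, 4.71 and 5.02 without stimulation.

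Arrays 1 and 2 of the WT IL-33 group were above all unstimulated WT arrays, and array 3 was below all of them. The difference between WT IL-33 and unstimulated WT cells was 0.33 ± 0.27 log2 units (SE, n = 3, adjusted p = 0.495). Without the 6 arrays numbered 3 it was 0.68 ± 0.21 (adjusted p = 0.0121), so those arrays decided the call. The other 2 kept probes, for the transcripts NM_134103 and NM_008364, were also higher on arrays 1 and 2 only: the WT IL-33 arrays differed from the unstimulated arrays of the same number by 0.90, 0.72 and -0.32 on the first and by 0.93, 1.26 and -0.39 on the second. The 3 remaining Il1rap probes were detected on 0, 1 and 2 arrays.

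**Figure D2:**
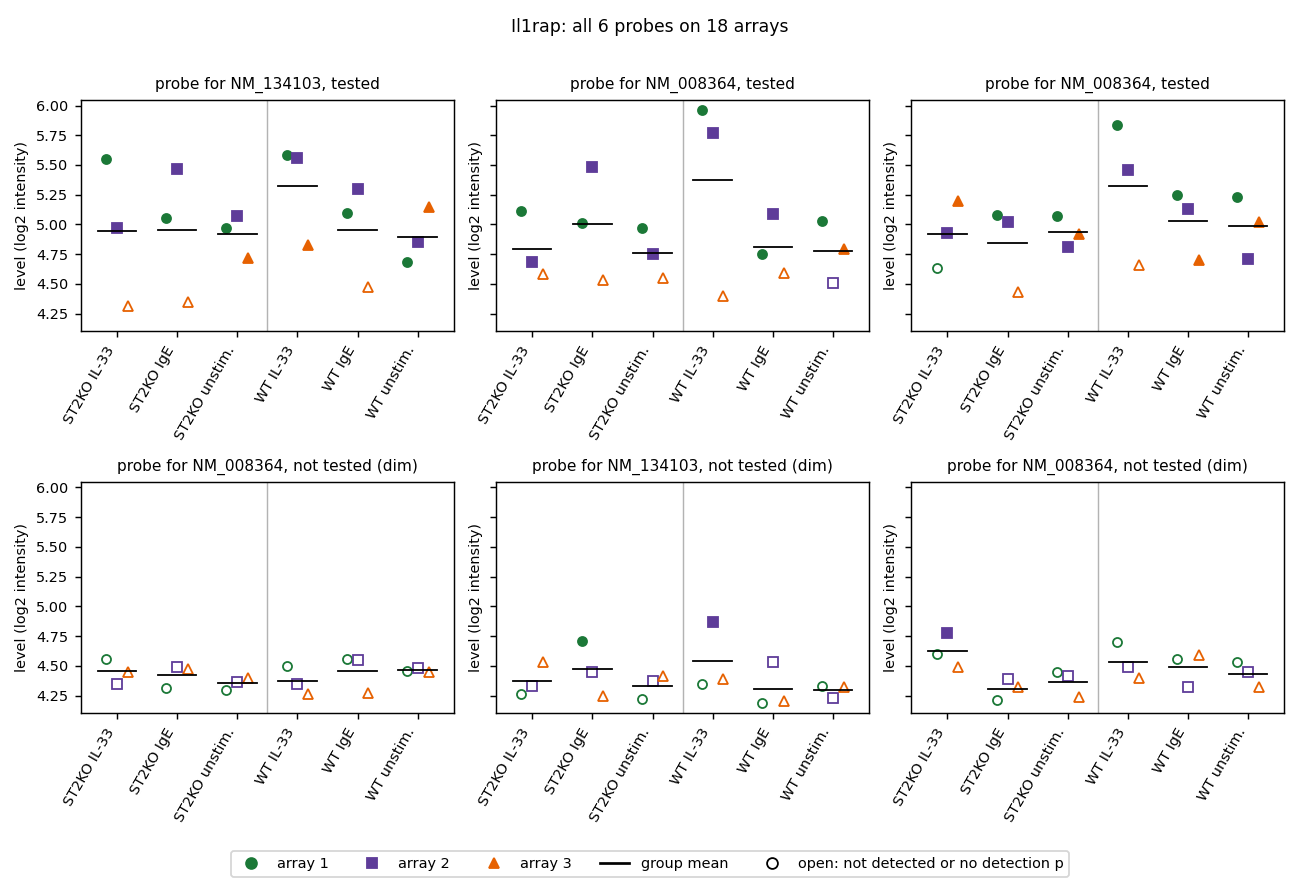
Level of each of the 6 Il1rap probes (y axis, log2 intensity after normalization) on 18 arrays in 6 groups; markers give the array number, bars the group mean, and open markers values not detected or without a detection p. On the 3 probes tested, WT IL-33 arrays 1 and 2 lie above the unstimulated WT arrays; array 3 lies below them on the NM_008364 probes and among them on the NM_134103 probe.

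Myd88, the adaptor on which the receptor complex assembles, stayed within a narrow range, 11.23 to 11.88 log2 units on 18 arrays. Its 3 IgE arrays in WT cells, at 11.38, 11.38 and 11.48, lay just below the 3 unstimulated WT arrays, at 11.69, 11.53 and 11.49, and the difference was -0.16 ± 0.16 (SE, n = 3, adjusted p = 0.595). After IL-33 WT cells had 11.23, 11.24 and 11.60, and the groups overlapped. That difference was -0.21 ± 0.16 (adjusted p = 0.45); without the arrays numbered 3 it was -0.38 ± 0.11 (adjusted p = 0.00684). The IgE difference in ST2KO cells was -0.17 ± 0.16 (adjusted p = 0.545), and -0.32 ± 0.11 without those arrays (adjusted p = 0.0204). The second Myd88 probe differed by -0.15 ± 0.17 after IL-33 in WT cells (adjusted p = 0.67 over probes). After IgE in WT cells it had a mean of 8.77, against 9.04 without stimulation. It was lower there in 3 of 3 pairs of the same number, by -0.35, -0.15 and -0.31. In ST2KO cells that probe had a mean of 8.73 after IgE and 9.06 without stimulation. Its ST2KO IgE arrays differed from the unstimulated arrays of the same number by -0.63, -0.32 and -0.04.

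Irak1, the kinase that IRAK4 activates first, ranged from 8.64 to 9.42 on 18 arrays. In IgE-activated ST2KO cells it had 8.75, 8.88 and 8.90, against 9.15, 9.28 and 8.91 in unstimulated ST2KO cells. The groups just failed to overlap, and the difference was -0.27 ± 0.19 (SE, n = 3, adjusted p = 0.38). Without the arrays numbered 3 it was -0.40 ± 0.13 (adjusted p = 0.0207), while the other 2 Irak1 probes, on all arrays, differed by 0.02 ± 0.20 and -0.14 ± 0.20. WT cells had 8.97, 9.16 and 9.27 after IL-33, 8.86, 8.71 and 8.91 after IgE, and 9.11, 9.19 and 8.64 without stimulation. The WT IgE difference was -0.15 ± 0.19 (adjusted p = 0.675), and -0.36 ± 0.13 without the arrays numbered 3 (adjusted p = 0.0345). The WT IL-33 difference was 0.15 ± 0.19 (adjusted p = 0.668), and the pairs of the same number differed by -0.14, -0.03 and 0.63. Of the other 2 probes, 1 was higher after IL-33 in 3 of 3 WT pairs, by 0.19, 0.55 and 0.73. The remaining probe differed there by 0.06, -0.04 and 0.19.

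Irak2, a kinase of the same complex known for sustaining signalling to TRAF6, was lower in IgE-activated cells of both genotypes in the fit with the replicate block, and no difference was detected after IL-33. In ST2KO cells its level was 9.13, 9.20 and 10.42 log2 units after IL-33, 8.02, 8.33 and 9.51 after IgE, and 9.22, 9.39 and 10.39 without stimulation. WT cells had 9.13, 8.74 and 10.25 after IL-33, 7.56, 7.55 and 9.34 after IgE, and 9.04, 9.06 and 10.11 without stimulation.

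Array 3 was higher than arrays 1 and 2 in all 6 groups, with a median difference of 1.29, so the IgE and unstimulated groups overlapped. Within each number the IgE array was lower in 3 of 3 pairs in each genotype, by -1.20, -1.07 and -0.88 in ST2KO cells and by -1.48, -1.51 and -0.77 in WT cells. The change was -1.05 ± 0.57 in ST2KO cells (SE without the block, n = 3, adjusted p = 0.256; with the block 4.35e-05) and -1.25 ± 0.57 in WT cells (adjusted p = 0.178; with the block 7.98e-06).

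After IL-33 the difference of Irak2 from unstimulated cells was -0.08 ± 0.57 in ST2KO cells and -0.04 ± 0.57 in WT cells (adjusted p = 0.98 in WT). In WT cells the interval with the block ran from -0.34 to 0.27. Against IgE, WT cells given IL-33 had more Irak2 by 1.22 (adjusted p = 0.333; with the block 1.73e-05). All 3 Irak2 probes moved this way: the IgE change of the other 2 was -0.99 and -1.07 in ST2KO cells and -0.95 and -1.06 in WT cells, each past the threshold over probes with the block. The order of the group means was ST2KO unstimulated (9.67 ± 0.63, SD), ST2KO IL-33 (9.58 ± 0.73), WT unstimulated (9.41 ± 0.61), WT IL-33 (9.37 ± 0.79), ST2KO IgE (8.62 ± 0.79) and WT IgE (8.15 ± 1.03). No neighbours in that order differed by more than their SD. These SDs hold the shared displacement of array 3, so they do not measure the spread of differences between arrays of the same number.

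Irak3, also called IRAK-M, lacks the kinase activity of its relatives and is known, mostly from macrophages, as a brake on the pathway. With the block it too was lower after IgE in both genotypes. In ST2KO cells its level was 9.12, 9.01 and 9.70 after IL-33, 8.10, 8.03 and 8.62 after IgE, and 9.04, 9.40 and 9.48 without stimulation. Its level in WT cells was 8.45, 8.46 and 10.81 after IL-33, 7.79, 7.77 and 9.16 after IgE, and 9.24, 9.11 and 10.04 without stimulation.

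In ST2KO cells the IgE arrays lay below all unstimulated arrays; in WT cells IgE array 3 overlapped them. Array 3 was higher than arrays 1 and 2 in all 6 groups, by a median of 0.75. Pairs of the same number differed by -0.94, -1.37 and -0.86 in ST2KO cells and by -1.45, -1.34 and -0.89 in WT cells. The IgE change was -1.06 ± 0.53 in ST2KO cells (SE without the block, n = 3, adjusted p = 0.214; with the block 0.00128) and -1.22 ± 0.53 in WT cells (adjusted p = 0.151; with the block 0.000397).

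In WT cells given IL-33, Irak3 was lower on arrays 1 and 2, by -0.79 and -0.65 against the unstimulated array of the same number, and higher on array 3, by 0.77. The change was -0.22 ± 0.53 (adjusted p = 0.846; with the block 0.48), and without the arrays numbered 3 it was -0.72 ± 0.14 (adjusted p = 0.000217). WT IL-33 array 3 decided this value: with that array alone left out, without the block, it was -1.01 (adjusted p = 0.0933). That fit keeps unstimulated WT array 3, which was 0.87 above the mean of unstimulated WT arrays 1 and 2. The value of -1.01 therefore also holds this displacement. WT cells given IL-33 had more Irak3 than WT cells given IgE, by 0.54 to 1.46 in the 95% interval with the block (adjusted p = 0.00382; without the block 0.417), and by 0.67 without the arrays numbered 3 (adjusted p = 0.000848).

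The summed level of macrophage and dendritic cell markers was also lower after IgE, while single markers went both ways. Of 13 macrophage and dendritic cell markers 8 were tested, and their summed linear level was 460.8, 581.9 and 422.4 in IgE-activated ST2KO cells against 1771, 1891 and 740.5 in unstimulated ST2KO cells. In WT cells it was 517.1, 528.3 and 877.4 after IgE against 1212, 1388 and 1721 without stimulation. After IL-33 the sum was 879.8, 1063 and 1437 in WT cells and 1526, 1719 and 795.2 in ST2KO cells. Cx3cr1, Lyz2 and Adgre1 were the brightest of the 8 and carried most of the sum, and C1qa, Ccr2, Cd14 and Clec7a were detected on 3 to 8 of 17 arrays. Cx3cr1, a chemokine receptor, fell by 2.72 in ST2KO cells (adjusted p = 0.0255) and by 2.56 in WT cells (adjusted p = 0.0347), while Clec7a rose by 1.08 (adjusted p = 0.000693) and 0.55 (adjusted p = 0.036). With the block Lyz2, a lysozyme, fell by 0.91 in ST2KO cells (adjusted p = 0.000146; without the block 0.251) and by 0.71 in WT cells (adjusted p = 0.00118; without the block 0.399). Adgre1, the surface protein F4/80, fell with the block by 0.70 in ST2KO cells (adjusted p = 0.00907; without it 0.0899) and by 0.60 in WT cells (adjusted p = 0.0227; without it 0.151). Csf1r, the receptor that defines macrophages, lay between 4.33 and 5.25 log2 units and was detected on 12 of 17 complete arrays, and Mrc1 and C1qb were detected on 0. The changes of Csf1r, Cd14, C1qa and Ccr2 after IgE were 0.23, 0.18, 0.01 and -0.13 in ST2KO cells. In WT cells they were -0.16, 0.11, 0.18 and -0.33, and none of these passed, with or without the block. The part of these cells in the Irak2 and Irak3 results was not tested, and in bulk RNA fewer cells of a type and less RNA per cell cannot be told apart.

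**Figure D3:**
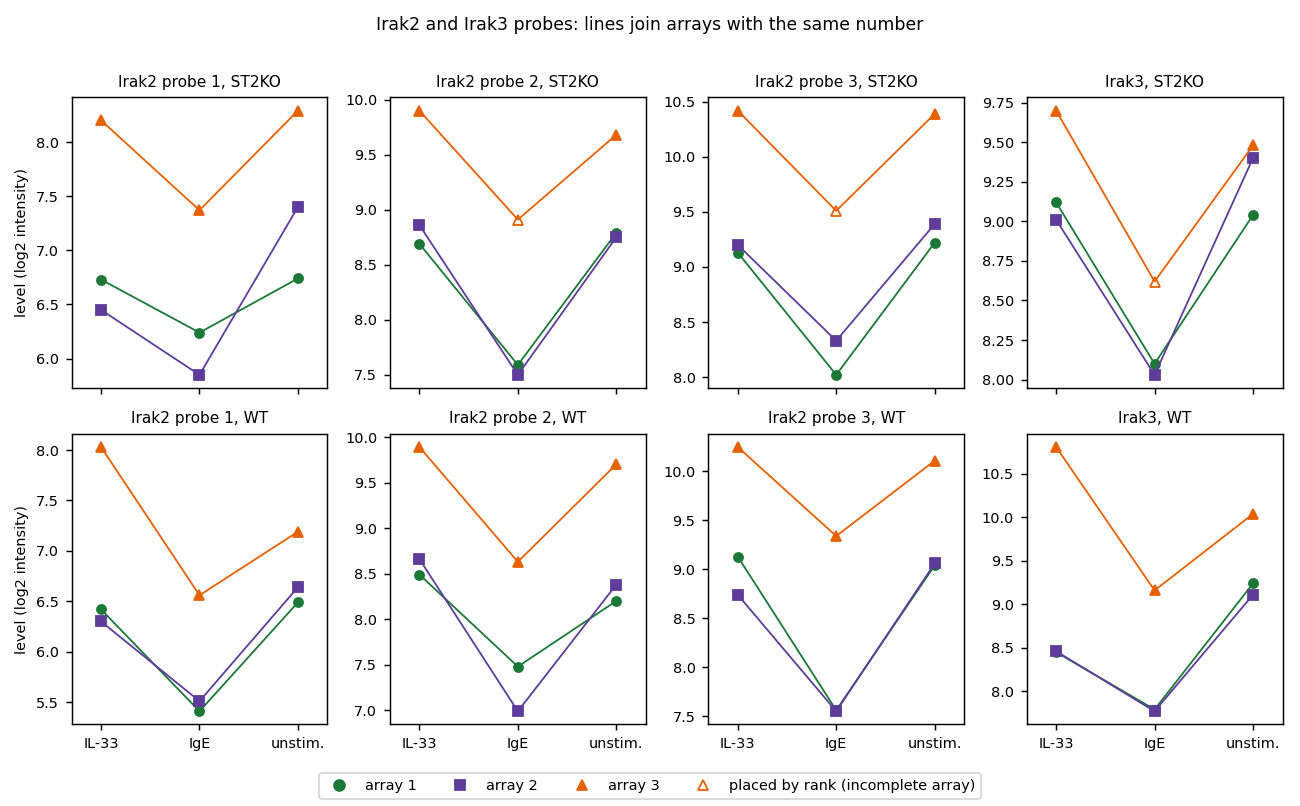
Levels (y axis, log2 intensity after normalization) of the 3 Irak2 probes and the Irak3 probe in ST2KO (top) and WT cells (bottom), with lines joining arrays of the same number across IL-33, IgE and unstimulated cells; the open marker is the incomplete array, placed by rank. On the first Irak2 probe the incomplete array is drawn with a filled marker, though its level was also placed by rank. Every line dips at IgE, and the lines of array 3 lie above the others.

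Traf6, the ubiquitin ligase that links the IRAK kinases to TAK1, was higher after IgE in ST2KO cells, and with the block also after either stimulus in WT cells. In ST2KO cells its level was 7.68, 8.04 and 8.05 after IL-33, 8.61, 8.68 and 8.47 after IgE, and 7.92, 7.97 and 8.05 without stimulation. WT cells had 8.52, 8.64 and 8.06 after IL-33, 8.51, 8.23 and 8.21 after IgE, and 8.15, 8.01 and 7.56 without stimulation. The IgE arrays lay above all unstimulated arrays in both genotypes, while WT IL-33 array 3 fell between unstimulated WT arrays.

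The change in ST2KO cells after IgE was 0.61 ± 0.19 (SE, n = 3, adjusted p = 0.0447; with the block 0.00329). The change in WT cells was 0.41 ± 0.19 after IgE (adjusted p = 0.176; with the block 0.0345) and 0.50 ± 0.19 after IL-33 (adjusted p = 0.0967; with the block 0.0118), higher in 3 of 3 pairs each. In the fit without the arrays numbered 3, which has no block, the WT IgE change was 0.29 ± 0.15 (adjusted p = 0.151) and did not pass. Leaving out single arrays, the ST2KO IgE call without the block held in 7 of 18 fits. In ST2KO cells given IL-33 it was -0.06 ± 0.19. The IL-33 response in ST2KO minus WT cells was -0.56 ± 0.26 (adjusted p = 0.341; with the block 0.0691), with an interval under the block from -0.98 to -0.14 before adjustment for the number of genes. The other 2 kept Traf6 probes did not pass over probes: after IgE in ST2KO cells they differed by 0.43 ± 0.24 and 0.10 ± 0.26, and after IL-33 in WT cells by 0.11 ± 0.24 and 0.40 ± 0.26.

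Tab2, which binds the ubiquitin chains made by TRAF6, had 1 probe and varied little, from 9.43 to 10.10. WT cells had 10.06, 10.10 and 9.71 after IL-33, 9.74, 9.60 and 9.67 after IgE, and 9.84, 9.78 and 9.85 without stimulation. The IgE arrays lay just below the unstimulated ones, by -0.16 ± 0.13 (adjusted p = 0.515), and IL-33 arrays 1 and 2 lay above them. The IL-33 difference from unstimulated WT cells was 0.13 ± 0.13 (adjusted p = 0.601), and that from WT IgE cells was 0.29 ± 0.13 (adjusted p = 0.333; 0.41 and 0.0314 without the arrays numbered 3).

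Map3k7, which encodes TAK1, gave differing answers on its 2 probes in WT cells given IL-33. On the brighter probe WT cells had 7.46, 7.04 and 6.31 after IL-33, 6.53, 7.36 and 7.08 after IgE, and 7.06, 7.11 and 6.51 without stimulation, and the groups overlapped. Its changes were 0.04 ± 0.34 after IL-33 (adjusted p = 0.961) and 0.10 ± 0.34 after IgE (adjusted p = 0.899). In ST2KO cells the brighter probe changed by 0.36 ± 0.34 after IgE (adjusted p = 0.549) and by -0.09 ± 0.34 after IL-33. After IgE it was higher there in 3 of 3 pairs of the same number, by 0.34, 0.43 and 0.32. The dimmer probe, for the clone BC006665, was detected on 3 of 3 WT IL-33 arrays, with a mean of 5.11 log2 units, and on 0 of 3 unstimulated WT arrays, with a mean of 4.55. The fitted change was 0.55 ± 0.13 (adjusted p = 0.0122 over probes, where 9.93% of all probes passed). Since the unstimulated signal was not well above background, 1.38-fold was taken as a more cautious estimate of the rise after IL-33. It leaves out the spread between arrays, so it is not a lower limit. On the same probe the arrays of the other 3 stimulated groups were also above the unstimulated array of the same number in 3 of 3 pairs, by 0.40, 0.30 and 0.13 in ST2KO cells given IL-33, by 0.49, 0.18 and 0.35 in ST2KO cells after IgE and by 0.41, 0.30 and 0.08 in WT cells after IgE; none of these passed.

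Mapk8, which encodes the MAP kinase JNK1 at the end of this branch, was lower after IgE in ST2KO cells. In ST2KO cells its level was 6.76, 6.58 and 7.28 after IL-33, 5.51, 5.48 and 6.14 after IgE, and 6.65, 6.96 and 7.35 without stimulation. In WT cells it was 5.72, 6.41 and 6.73 after IL-33, 6.04, 5.94 and 5.71 after IgE, and 6.66, 6.23 and 6.87 without stimulation. The IgE arrays lay below all unstimulated arrays of the same genotype in both.

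The IgE change of Mapk8 was -1.28 ± 0.29 in ST2KO cells (SE, n = 3, adjusted p = 0.0103; with the block 0.000346) and -0.69 ± 0.29 in WT cells (adjusted p = 0.143; with the block 0.0248). In the fit without the arrays numbered 3, which has no block, the WT change was -0.46 ± 0.23 (adjusted p = 0.122) and did not pass. It was lower in 3 of 3 pairs in each genotype, and the ST2KO call held in 16 of 18 fits that left out 1 array. After IL-33 it was -0.11 ± 0.29 in ST2KO cells and -0.30 ± 0.29 in WT cells (adjusted p = 0.574 in WT). These values rest on 1 of 3 kept probes, that for NM_016700: the other 2, for the clones AK030767 and AK032486, changed by -0.23 ± 0.21 and 0.00 ± 0.18 after IgE in ST2KO cells. The last was detected on 1 array in each group, of 2 with a detection p among the ST2KO IgE arrays and of 3 elsewhere.

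**Figure D4:**
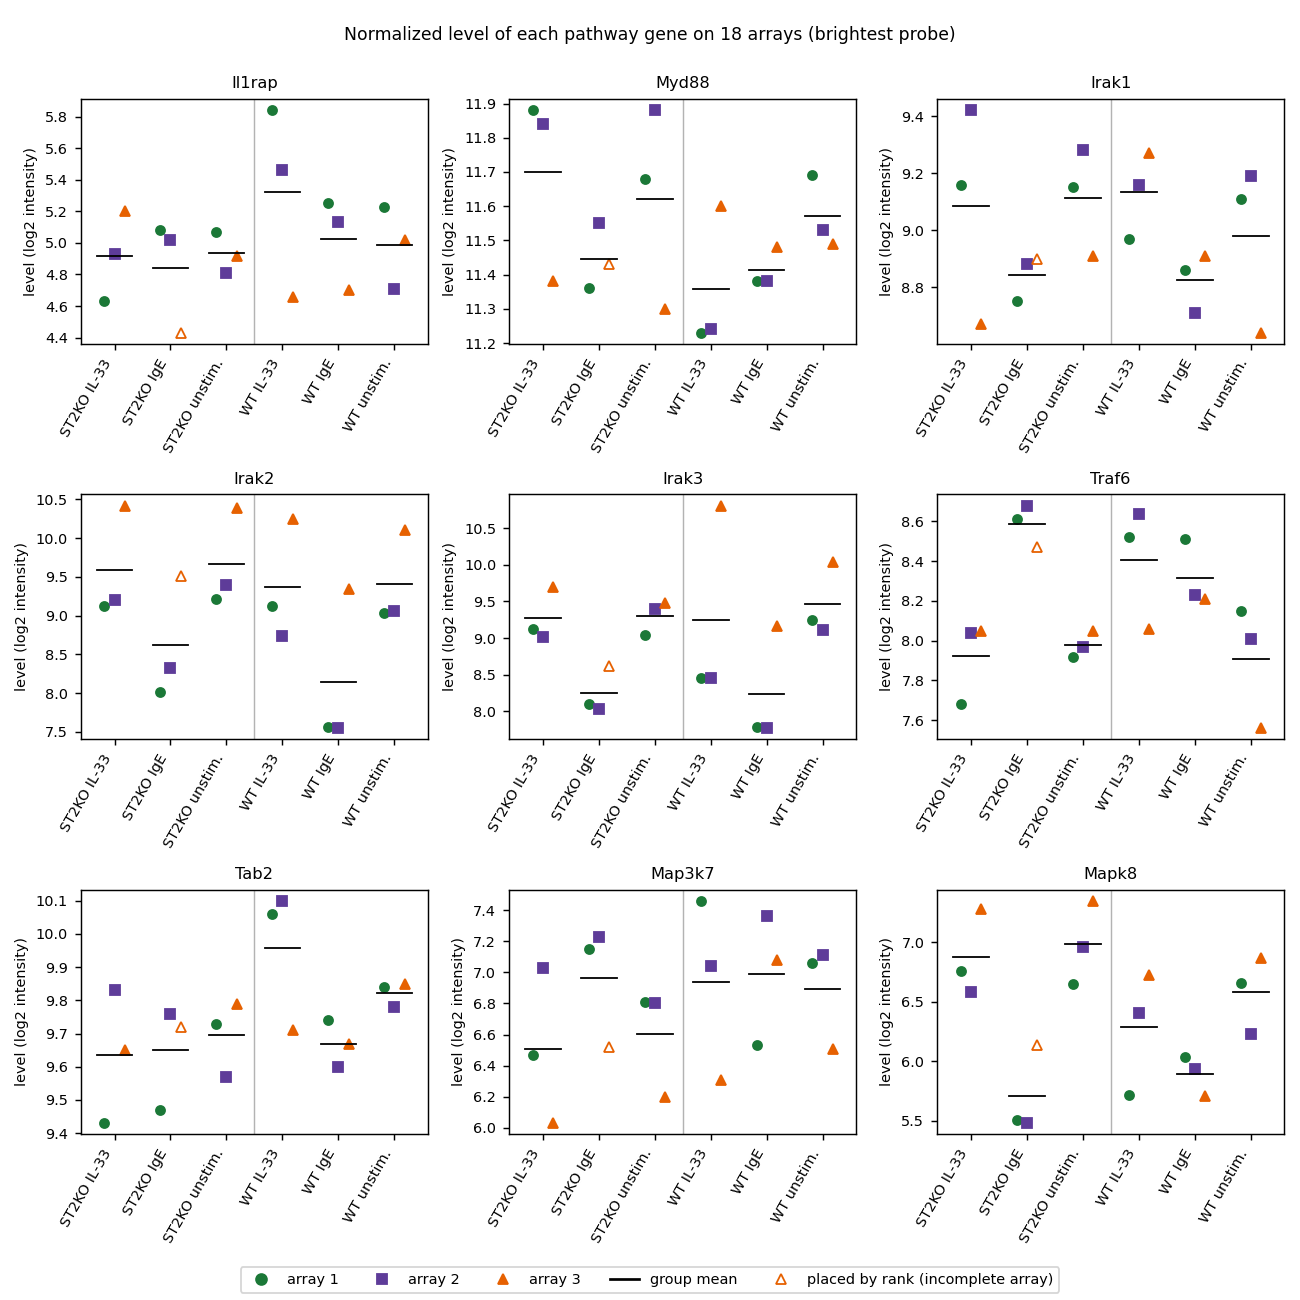
Level of the brightest probe of each of the 9 genes (y axis, log2 intensity after normalization) on 18 arrays in 6 groups; markers give the array number, bars the group mean, and the open triangle the incomplete array, placed by rank. The y axes differ between genes; Irak2, Irak3 and Mapk8 sit lower in the IgE groups, Traf6 sits higher there, and array 3 stands above the others for Irak2.

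Whether the genes need ST2 for their levels or responses was asked in 4 comparisons. In ST2KO cells given IL-33, 0 of 9 members and 0% of all genes passed, with or without the block, and 0 members had an unadjusted p under 0.05. Without stimulation, ST2KO cells against WT cells had 0 of 9 members past the threshold, where 0.0095% of all genes passed (0.199% with the block), and 0 at an unadjusted p under 0.05. Without the arrays numbered 3, 533 of 10529 genes passed and 0 of 9 members. The largest such difference was that of Mapk8, 0.40 ± 0.29, with an interval from -0.22 to 1.02.

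No member passed for the IgE response in ST2KO minus WT cells, nor did any gene in limma (0%, also with the block), and 0 members had an unadjusted p under 0.05 without the block. For Irak2 that difference was 0.20, with an interval under the block from -0.23 to 0.63; for Irak3 it was 0.17, from -0.48 to 0.82; for Mapk8 it was -0.59, from -1.25 to 0.08. For the IL-33 response in ST2KO minus WT cells 0 of 9 members passed, where 2.72% of all genes did (15.6% with the block), and 0 members had an unadjusted p under 0.05 without the block. Without the arrays numbered 3 there were 3, where 24.3% of all genes passed: Il1rap was lower, at -0.84 (10.4% of all genes were lower), and Myd88 and Irak3 were higher, at 0.46 and 0.57 (13.9% were higher).

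Around these genes, 4 lists of the same pathway were read: receptors and adaptors, ubiquitin enzymes, MAP3 kinases with the IKK complex, and MAP kinases. Their counts stand beside the shares of all genes given above without the block, 12.6% after IgE in ST2KO cells, 11.9% after IgE in WT cells and 11.8% after IL-33 in WT cells, and with it, 33.8%, 32.5% and 31.5%. Of 11 receptors and adaptors of the family 9 were tested, and 1 rose after IgE in each genotype, Il18rap, the accessory chain of the IL-18 receptor. It had 6.38, 6.77 and 6.04 in IgE-activated ST2KO cells against 5.56, 5.31 and 4.54 unstimulated, and 6.83, 6.47 and 6.17 in IgE-activated WT cells against 5.70, 5.22 and 4.67. No IgE array overlapped the unstimulated ones; the changes were 1.26 ± 0.37 (adjusted p = 0.0364) and 1.30 ± 0.37 (adjusted p = 0.0332). With the block 4 of the 9 were higher and 1 lower after IgE in each genotype. After IL-33 in WT cells 0 of 9 passed, with 3 at an unadjusted p under 0.05 in limma; with the block 1 was higher (Ticam2) and 2 were lower (Il18r1, Sigirr). The bright members Il18r1, the other IL-18 receptor chain, and Tollip, an adaptor known to restrain IL-1 receptor signalling, changed by -1.37 ± 0.63 (adjusted p = 0.185; with the block 2.13e-05) and -0.17 in that comparison.

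Of 16 ubiquitin enzymes and their regulators 15 were tested, and 4 rose and 0 fell in WT cells after IL-33, with 1 lower under the block, Rbck1. Tnfaip3, which encodes the deubiquitinase A20 that turns the pathway off, had 10.63, 10.59 and 9.94 in WT IL-33 cells against 8.77, 9.04 and 8.96 in unstimulated WT cells. The groups did not overlap, and the change was 1.46 ± 0.24 (adjusted p = 0.00106). Its partner Tnip1 rose by 1.26 ± 0.29 (adjusted p = 0.00942), the adaptor Traf2 by 0.94 ± 0.21 (adjusted p = 0.00875) and Rnf31, the catalytic chain of the linear ubiquitin ligase, by 0.69 ± 0.18 (adjusted p = 0.0218). The list's median was 0.10, beside -0.02 over all genes.

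After IgE 3 ubiquitin genes rose and 1 fell in ST2KO cells, and 2 rose and 1 fell in WT cells. With the block 3 were higher and 3 lower in ST2KO cells, and 3 higher and 1 lower in WT cells. Peli1, a ligase that acts on IRAK1, had 7.93, 8.01 and 7.14 in IgE-activated ST2KO cells against 6.52, 6.90 and 6.51 unstimulated, and 7.89, 7.82 and 7.32 in IgE-activated WT cells against 6.38, 6.54 and 6.54. The groups did not overlap; the changes were 1.05 ± 0.23 (adjusted p = 0.00773) and 1.19 ± 0.23 (adjusted p = 0.00354), and WT cells given IL-33 had less Peli1 than WT cells given IgE, by -0.99 ± 0.23 (adjusted p = 0.0207). Tnfaip3 rose by 0.79 in ST2KO cells (adjusted p = 0.0411) and 0.86 in WT cells (adjusted p = 0.0299), and Ube2d3, a conjugating enzyme that works with TRAF6 in vitro, changed by -0.49 in ST2KO cells (adjusted p = 0.0862; with the block 0.00376) and -0.63 in WT cells (adjusted p = 0.0343). Traf5, an adaptor of TNF family receptors, rose by 1.34 ± 0.28 in ST2KO cells (adjusted p = 0.00618) and Rbck1, a subunit of the linear ubiquitin ligase, fell by 0.71 (adjusted p = 0.0187); these 2 were named after their values were seen. The bright members Cyld and Otud5, both deubiquitinases, changed by -0.17 and 0.07 in WT cells and did not pass.

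Of 12 genes for TAK1 partners, MAP3 kinases and the IKK complex 11 were tested, and 2 rose and 1 fell in WT cells after IL-33, with and without the block. Map3k8, the kinase TPL2 that acts below IKK, had 7.01, 7.44 and 8.07 in WT IL-33 cells against 4.83, 5.26 and 7.33 in unstimulated WT cells, so unstimulated array 3 overlapped the IL-33 arrays. It rose by 1.70 ± 0.50 (adjusted p = 0.0396), and Ikbke, an IKK-related kinase, by 1.07 ± 0.24 (adjusted p = 0.00748). Against WT IgE cells both were higher with IL-33, by 2.05 (adjusted p = 0.0295) and 1.13 (adjusted p = 0.0112). Map3k1, a kinase above JNK, fell by 1.18 after IL-33 in WT cells (adjusted p = 0.00797), by 0.98 after IgE in ST2KO cells (adjusted p = 0.025) and by 0.93 after IgE in WT cells (adjusted p = 0.032), the 1 call of this list in each of the IgE comparisons without the block; with it 1 was higher and 1 lower in each. Tab1, the partner that activates TAK1, and Tbk1 were bright and did not pass, with changes of -0.15 and -0.01 after IL-33 in WT cells.

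Of 15 MAP kinase genes 11 were tested. In WT cells 1 rose after IgE, Mapkapk2, a target of p38, by 0.62 ± 0.17 (adjusted p = 0.0305), and 0 passed after IL-33, with 3 at an unadjusted p under 0.05 in limma and 3 higher and 2 lower past the threshold with the block. The lower ones, named after their values were seen, were Mapk9, the JNK2 kinase, at -0.47 (adjusted p = 0.248; with the block 0.0098), and Mapk14, the p38 kinase, at -0.62 (adjusted p = 0.0877; with the block 0.00587). With the block 4 were higher and 0 lower after IgE in ST2KO cells, and 3 higher and 1 lower after IgE in WT cells. In ST2KO cells after IgE 2 rose without it: Map2k3, an activator of p38, by 0.80 ± 0.25 (adjusted p = 0.0473), and Mapkapk3, another p38 target named after its value was seen, by 0.83 ± 0.26 (adjusted p = 0.0465). In WT cells after IgE Map2k3 changed by 0.77 ± 0.25 (adjusted p = 0.0578; with the block 1.91e-05), and Map2k2 by 0.21. In ST2KO cells given IL-33 0 genes of the 4 lists passed, and 0 had an unadjusted p under 0.05, with or without the block.

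**Figure D5:**
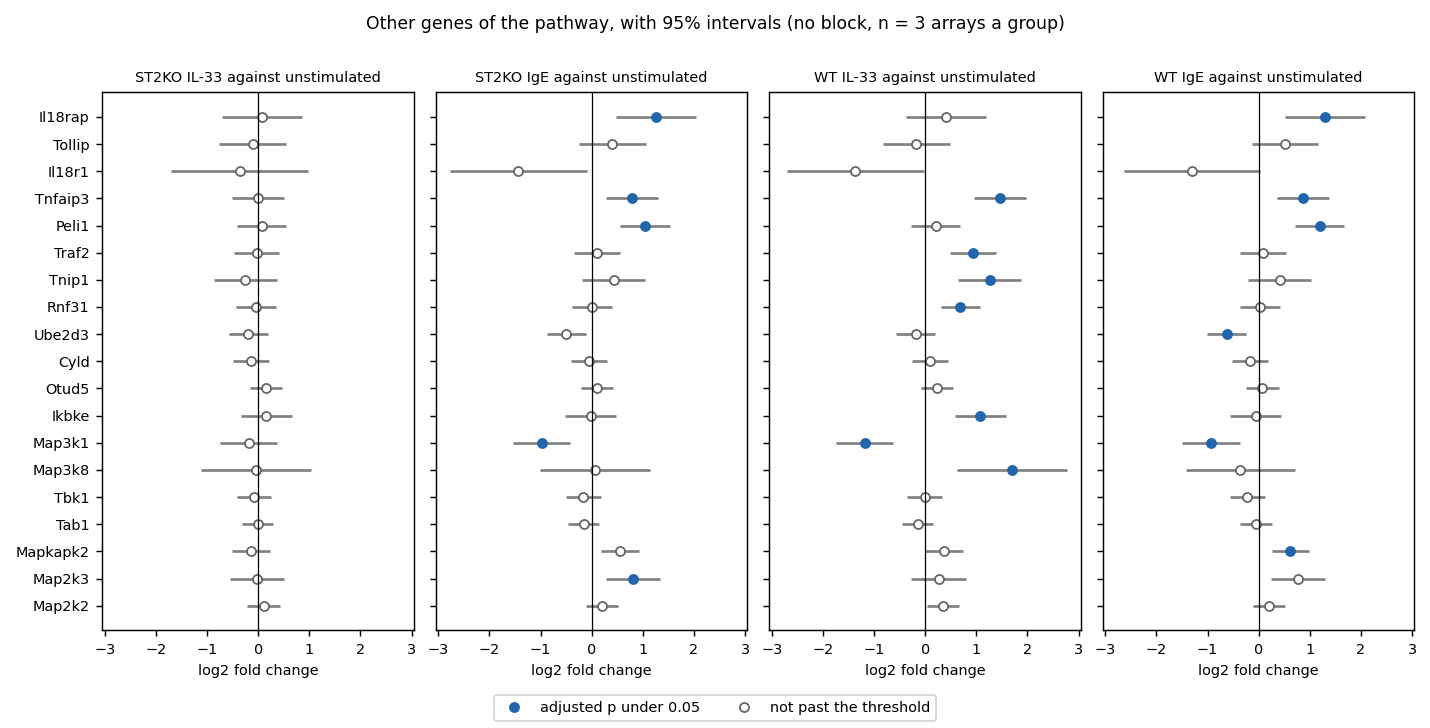
Log2 fold change (x axis) of 19 other genes of the pathway against unstimulated cells of the same genotype, with 95% intervals from limma without the block, n = 3 arrays a group; filled points passed an adjusted p of 0.05. Filled points for Tnfaip3, Tnip1, Traf2, Rnf31, Ikbke and Map3k8 lie right of 0 in WT cells given IL-33, Il18rap and Peli1 do so after IgE in both genotypes, and no point is filled in ST2KO cells given IL-33.

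The genes whose levels followed those of the 4 members called in a WT stimulation under the block were read over the 17 complete arrays, as a description; the arrays share 6 groups and the displacement of the arrays numbered 3. The highest Pearson correlations with Irak2 were those of Capn5 (0.956), Akap17b (0.953) and Slc39a6 (0.953), and those with Irak3 were Tlr6 (0.956), Trafd1 (0.939) and Tnfrsf21 (0.937). Traf6 was followed by Gars (0.905), Luc7l (0.897) and Ptbp1 (0.882), and Mapk8 by Rhebl1 (0.926), Nfe2 (0.917) and Xpa (0.912).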

How the data were processed

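The deposited intensities were used as probe intensities before normalization, with background still in, per the file headers, which pair each array with a detection p-value; how the authors computed these p-values is not given in the sources used here. The authors' deposited log2 table has a median of 4.24 on every array; its normalization is likewise not given, and it correlated at 0.992 with the values used here on the first array. Intensities were background-corrected and quantile-normalized by the neqc function of limma 3.58.1 under R 4.3.3; the offset was 16, and the function inferred the negative controls' spread through the detection p-values. On the array with intensities for 10012 of 45281 probes, all levels were placed by the rank of the authors' log2 values.

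Gene names came from the platform annotation (34885 probes with 1 symbol, 18 with several, 10378 not listed). A probe was kept where 3 or more of 17 complete arrays gave it a detection p under 0.05 (19514 probes), and the brightest kept probe stood for each of 10529 genes. limma was fitted over all genes to 6 group means (12 residual degrees of freedom, trended eBayes, Benjamini-Hochberg, threshold 0.05). Alternatives were a replicate block (the array number within a genotype, or shared for the genotype comparison), median scaling, other detection filters, every probe, single arrays left out and, chosen after seeing the data, the arrays numbered 3 left out. The pairing check stands in the first results. Of each pathway list, genes past the threshold in a WT comparison were named, up to 6 by smallest adjusted p, with up to 2 of the brightest others. The members and lists were chosen with earlier results of these data known. The calculations were tested on simulated data. Per-sample columns not used numbered 0.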

Additional observations from a re-analysis of the deposited data

Results flagged for a closer look

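Tnfaip3, which encodes the A20 deubiquitinase, differed between the genotypes in its IL-33 response. Its level was 8.48, 8.93 and 9.01 log2 units in ST2KO cells given IL-33 against 8.68, 8.95 and 8.79 in unstimulated ST2KO cells, and 10.63, 10.59 and 9.94 in WT cells given IL-33 against 8.77, 9.04 and 8.96 in unstimulated WT cells. The response in ST2KO minus WT cells was -1.47 ± 0.34 (SE, n = 3 arrays a group, limma adjusted p = 0.0357; with the replicate block 0.00122). Groups of 3 arrays were not tested for single arrays that stand apart.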

How the results depend on the processing

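Of 9 members, the number past the threshold with the replicate block was 4 after IgE in ST2KO cells (2 without the block), 4 after IgE in WT cells (0), 1 after IL-33 in WT cells (0) and 2 for WT IL-33 against WT IgE cells (0). The fit without the 6 arrays numbered 3 has no block. There these numbers were 6, 3, 4 and 3, and 3 for the IL-33 response in ST2KO minus WT cells. Of all 10529 genes 3880, 3912, 4069, 2199 and 2563 passed there, in the same order. After IgE in WT cells Traf6 (0.29, adjusted p = 0.151) and Mapk8 (-0.46, adjusted p = 0.122) did not pass in that fit, and Irak1 (-0.36, adjusted p = 0.0345) did. After IgE in ST2KO cells the number was 1 with median scaling and 1 with no detection filter, where Traf6 gave 0.60 (adjusted p = 0.214) and 0.61 (adjusted p = 0.08). With every kept probe tested it was 1 after IL-33 in WT cells. Leaving out single arrays gave 0 to 2 after IgE in ST2KO cells, 0 to 1 after IgE in WT cells and 0 to 1 after IL-33 in WT cells. Without the block Irak3 turned direction, but leaving out 1 array numbered 3 there keeps the displacement of array 3 in the other groups. Its IL-33 change in WT cells ran from -1.01 to 0.17, and its IL-33 response in ST2KO minus WT cells from -0.20 to 0.98. Under the block, all Irak2 and Irak3 IgE calls held in 18 of 18 such fits; the WT IgE call of Mapk8 held in 15 (lost without WT unstimulated arrays 1 and 3 and WT IgE array 3, highest adjusted p = 0.206), that of Traf6 in 13 (highest 0.204), and the WT IL-33 call of Traf6 in 16 (lost without WT unstimulated array 3, 0.0516, and WT IL-33 array 2, 0.106). Over all genes, the count past the threshold was 1326 without the block, 3558 with it and 3880 without the arrays numbered 3 after IgE in ST2KO cells (785 with median scaling), 1249, 3426 and 3912 after IgE in WT cells, 1246, 3315 and 4069 after IL-33 in WT cells, and 286, 1639 and 2563 for the IL-33 response in ST2KO minus WT cells (145 with no detection filter). For ST2KO against WT unstimulated cells it was 1, 21 and 533. Leaving out 1 array gave 658 to 1600 genes after IgE in ST2KO cells (lowest without ST2KO IgE array 1), 594 to 1460 after IgE in WT cells (lowest without WT IgE array 2), 624 to 1727 after IL-33 in WT cells (lowest without WT IL-33 array 1), and 99 to 577 for the IL-33 response between genotypes (without WT IL-33 arrays 1 and 3). Median scaling moved the share of higher calls to 28.5% against 44.9% after IgE in WT cells, to 18.8% against 43% after IL-33 in WT cells and to 78% against 46.2% for the IL-33 response between genotypes. The median log2 change over all genes was -0.13 with median scaling and -0.02 without it after IL-33 in WT cells, 0.17 and 0.02 for that response, and -0.11 and 0.01 for ST2KO against WT unstimulated cells. The cause was not tested. A slide block was not run, since the headers give no slide. Il1rap and the dimmer Map3k7 probe lay near the detection limit.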

Other observations

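These 4 genes of the receptor and MAP3 kinase lists were chosen after their values were seen. Each passed in limma with the replicate block and not without it. Sigirr, a receptor of the family known to restrain IL-1 and IL-33 signalling, had 5.50, 5.69 and 7.21 log2 units in WT cells given IL-33 against 7.43, 7.13 and 7.45 in unstimulated WT cells. Its change was -1.20 ± 0.40 (SE, n = 3, adjusted p = 0.0645; with the block 0.00136). Ticam2, an adaptor of the TLR4 pathway, had 6.90, 6.96 and 7.34 against 4.39, 4.39 and 6.42, and was detected on 3 of 3 and 1 of 3 arrays. The IL-33 array was higher in 3 of 3 pairs (adjusted p = 0.188; with the block 5.38e-05).

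Il1r2, a decoy receptor for IL-1, had 9.12, 8.98 and 5.85 in IgE-activated ST2KO cells against 7.25, 7.15 and 5.32 in unstimulated ST2KO cells, and 7.79, 7.98 and 6.90 in IgE-activated WT cells against 6.30, 6.08 and 5.56 in unstimulated WT cells. The IgE array was higher in 3 of 3 pairs in each genotype, by 1.41 (adjusted p = 0.28; with the block 0.000146) and 1.57 (adjusted p = 0.233; with the block 5.49e-05). Map3k14, the kinase NIK of the alternative NF-kB pathway, had 6.64, 7.07 and 7.62 in IgE-activated WT cells against 5.74, 5.41 and 6.53 in unstimulated WT cells, a change of 1.21 ± 0.50 (adjusted p = 0.135; with the block 0.000803).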
